A study of Homo sapiens with 6 samples.

Results

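A set of 8 genes of cholesterol synthesis and its control were followed in K562, a human leukemia cell line of erythroid character, by comparing nascent transcription with steady-state RNA. The members, fixed by name, were HMGCS1, MVD, FDPS, FDFT1, SQLE, LSS, DHCR7 and INSIG1, and no receptor for cholesterol uptake was among them. Of the 8 genes, 7 had a counted transcript among the 37339 that could be matched to the annotation. All 7 passed the thresholds described below, among 9929 transcription units (TUs) tested, 8733 of them mRNAs. For FDFT1, squalene synthase, none of its annotated transcript identifiers matched a counted one, and it is not analysed here.

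The series held 4 total RNA-seq libraries, depleted of ribosomal RNA, and 2 PRO-seq libraries, which map RNA polymerase engaged in transcription. All came from untreated cells of 1 flask grown in RPMI-1640 medium with 10% fetal bovine serum, a source of lipoprotein cholesterol, so the spread between libraries leaves out differences between cultures and may be technical. The RNA-seq libraries held 5732780 to 9002746 counts on TUs, and the PRO-seq libraries held 6993816 and 7245632. RNA-seq replicates 1 and 3, and replicates 2 and 4, lay closer to each other than the other pairs (chi-square per degree of freedom 1.12 in both, against 1.74 to 2.11 in the other 4 RNA-seq pairs and 1.61 for PRO-seq). Of 10 erythroid markers, 10 were above 1 TPM in RNA-seq, between 10.8 and 6287 TPM. Of 12 markers of other cell types, 9 had a counted transcript and 3 were above 1 TPM, namely LYZ at 334, EPCAM at 120 and COL1A2 at 1.36 TPM.

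Cholesterol is built from acetyl-CoA through mevalonate, isoprenoid pyrophosphates and squalene. HMGCS1 makes HMG-CoA, MVD makes isopentenyl pyrophosphate, and FDPS makes farnesyl pyrophosphate. FDFT1 joins farnesyl units into squalene, SQLE oxidizes squalene, LSS closes the rings to lanosterol, and DHCR7 acts in the last steps to cholesterol. INSIG1 holds the SREBP transcription factors in the endoplasmic reticulum when sterols are plentiful, and is itself a target of SREBP, as are the enzymes. The genes are therefore known for being transcribed together.

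The promoters of the genes are shown because co-regulated transcription is what the family is best known for. RefSeq promoters (GRCh38.p14) were given for 6 of the 8 genes. No entry was at hand for SQLE and FDFT1. The 180 bases before the first listed start site are printed 5′ to 3′ on the strand of the gene. They lie for HMGCS1 at chr5:43313413-43313592 on the minus strand, MVD at chr16:88663092-88663271 on the minus strand, FDPS at chr1:155308686-155308865 on the plus strand, LSS at chr21:46228775-46228954 on the minus strand, DHCR7 at chr11:71448394-71448573 on the minus strand and INSIG1 at chr7:155297698-155297877 on the plus strand. HMGCS1 and DHCR7 each had 2 listed promoters, of which the first is shown. Capitals mark CCAAT, the box bound by NF-Y, in either orientation, so that ATTGG is the same box on the other strand.
HMGCS1: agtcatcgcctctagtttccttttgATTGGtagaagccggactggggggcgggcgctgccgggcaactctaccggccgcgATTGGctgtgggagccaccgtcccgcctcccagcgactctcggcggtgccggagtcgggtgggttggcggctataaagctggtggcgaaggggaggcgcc
MVD: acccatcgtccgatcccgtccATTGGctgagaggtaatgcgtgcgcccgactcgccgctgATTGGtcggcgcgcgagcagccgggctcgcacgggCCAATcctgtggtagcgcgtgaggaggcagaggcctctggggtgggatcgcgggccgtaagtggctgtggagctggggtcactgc
FDPS: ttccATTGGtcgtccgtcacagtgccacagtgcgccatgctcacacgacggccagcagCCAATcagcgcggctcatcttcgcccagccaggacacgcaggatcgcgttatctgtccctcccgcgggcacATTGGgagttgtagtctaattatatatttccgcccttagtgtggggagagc
LSS: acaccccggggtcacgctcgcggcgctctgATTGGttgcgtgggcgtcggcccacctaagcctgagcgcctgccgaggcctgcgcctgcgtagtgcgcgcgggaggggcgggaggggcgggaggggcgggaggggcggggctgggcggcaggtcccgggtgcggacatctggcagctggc
DHCR7: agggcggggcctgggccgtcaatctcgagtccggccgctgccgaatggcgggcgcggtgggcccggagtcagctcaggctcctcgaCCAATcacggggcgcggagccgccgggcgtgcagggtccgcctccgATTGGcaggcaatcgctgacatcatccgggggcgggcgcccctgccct
INSIG1: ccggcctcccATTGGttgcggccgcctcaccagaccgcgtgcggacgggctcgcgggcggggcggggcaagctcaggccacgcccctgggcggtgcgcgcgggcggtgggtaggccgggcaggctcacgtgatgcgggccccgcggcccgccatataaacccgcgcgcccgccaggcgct

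All 6 promoters held a CCAAT box within 250 bases before the start, whereas 32.0% of 35116 RefSeq promoters did and 36.5% of those of 7226 tested mRNAs. In 4 of the 6 there were at least 2 such boxes, against 9.53% of all promoters and 13.98% of those of tested mRNAs. FDPS and MVD carried 3 each, HMGCS1 and DHCR7 carried 2 each, and LSS and INSIG1 carried 1 each. The box nearest to the start lay 51 bases before it in FDPS, 85 in MVD, 100 in HMGCS1, 48 in DHCR7, 150 in LSS and 170 in INSIG1. The core of the sterol regulatory element, searched as TCACNCCAC, was found in none of the 6 windows and in 0.883% of all promoters. A site that departs from these letters would be missed, so this search cannot show that the element is absent. The GC box GGGCGG was present in all 6, as in 42.6% of all promoters and 70.1% of those of tested mRNAs. LSS held 6 matches to it, 5 of them in a row between 75 and 38 bases before the start. A TATA box, TATAAA, lay 29 bases before the start of HMGCS1 and 27 before that of INSIG1, and 10.7% of all promoters held one. INSIG1 also held the E-box CACGTG, 55 bases before the start, found in 6.34% of all promoters. Each motif was searched on both strands, and no match overlapped one of another motif. These are matches of letters, and no binding was measured.

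All 7 measured genes had PRO-seq and RNA-seq levels above those of the median mRNA. In PRO-seq MVD lay only just above it, at 50.9 TPM, a percentile of 53.5. Levels are given as TPM, which are counts divided by TU length and scaled to a common total. RNA-seq counts were divided by exon length. For PRO-seq the divisor was the whole TU, introns included, less 1000 bp, as the ends of TUs were not counted. The median of the 7 genes was a PRO-seq level of 106 TPM, against 47.5 TPM for tested mRNAs, and an RNA-seq level of 142 TPM, against 31.2 TPM. Their PRO-seq levels differed by 4.02-fold from the lowest to the highest and their RNA-seq levels by 9.40-fold.

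HMGCS1 stood at 126 and 111 TPM in the 2 PRO-seq libraries and at 93.4, 106, 92.7 and 109 TPM in RNA-seq replicates 1 to 4. Its RNA-seq values fell into the same pairs as the libraries as a whole, with replicates 1 and 3 below replicates 2 and 4. MVD was the least transcribed of the 7, at 48.8 and 53.1 TPM in PRO-seq, yet its RNA reached 147, 141, 138 and 140 TPM. Its PRO-seq signal rested on 270 summed reads (95% exact Poisson interval 239 to 304, which covers counting error only). FDPS had the most RNA, at 471, 469, 483 and 471 TPM, with 126 and 139 TPM in PRO-seq. None of the other 6 genes reached its lowest value in any RNA-seq library.

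SQLE showed PRO-seq levels of 110 and 103 TPM, and its RNA stood at 231, 241, 238 and 234 TPM. LSS had PRO-seq levels of 55.7 and 65.3 TPM and RNA-seq levels of 50.1, 51.7, 55.1 and 44.1 TPM, the widest relative spread of the 7 genes in both assays (coefficient of variation 11.2% in PRO-seq and 9.14% in RNA-seq). DHCR7 had 84.6 and 80.4 TPM of PRO-seq signal and 57.5, 56.4, 57.0 and 51.9 TPM of RNA. INSIG1, the regulator of SREBP, was the most transcribed, at 214 and 195 TPM in PRO-seq, above every PRO-seq value of the enzymes. Its RNA, at 166, 157, 164 and 152 TPM, lay below that of FDPS and SQLE in every library.

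**Figure D1:**
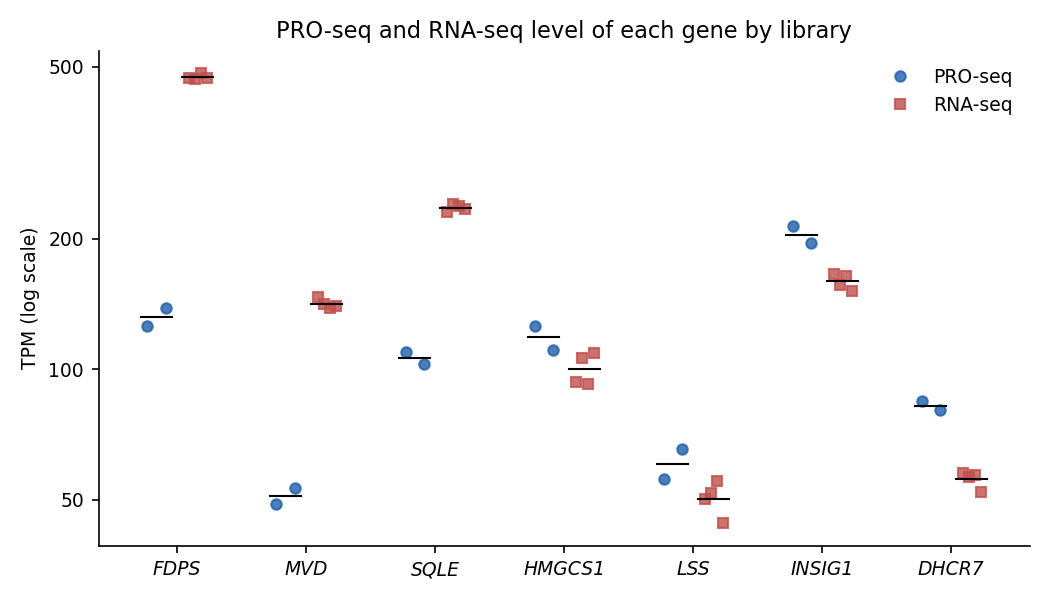
PRO-seq (circles) and RNA-seq (squares) levels in TPM on a log axis for the 7 measured genes, 1 point per library, with bars at the mean over 2 PRO-seq and 4 RNA-seq libraries. RNA-seq lies well above PRO-seq for FDPS, MVD and SQLE, and below it on this scale for HMGCS1, LSS, INSIG1 and DHCR7.

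Among the tested mRNAs, the percentile of the PRO-seq level was 94.9 for INSIG1, 88.8 for FDPS, 86.2 for HMGCS1, 83.3 for SQLE, 74.7 for DHCR7, 61.7 for LSS and 53.5 for MVD. In that order, FDPS exceeded HMGCS1 by 13.8 TPM, against a combined SD of 13.8 TPM, and HMGCS1 exceeded SQLE by 12.1 TPM, against 11.6 TPM, so that the first pair did not differ beyond its spread and the second barely did. The order of RNA levels was another one. The percentile among mRNAs was 96.7 for FDPS, 92.2 for SQLE, 88.1 for INSIG1, 86.6 for MVD, 80.9 for HMGCS1, 66.9 for DHCR7 and 64.1 for LSS. Of these neighbours, DHCR7 and LSS overlapped over the 4 libraries, and the other 5 pairs did not. The Spearman correlation of the levels across the 7 genes was 0.57, a description over few points that share libraries.

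Genes with close PRO-seq levels had unequal RNA. The PRO-seq level of FDPS was 1.12 times that of HMGCS1 and its RNA-seq level 4.69 times. MVD had 0.841 times the PRO-seq level of LSS and 2.83 times its RNA-seq level. SQLE had 0.898 times the PRO-seq level of HMGCS1 and 2.34 times its RNA-seq level. INSIG1, by contrast, exceeded FDPS by 1.54-fold in PRO-seq and had 0.338 times its RNA.

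The question that the pairing of assays addresses is how stable each RNA is. Where an RNA is made as fast as it is lost, and PRO-seq is taken to stand for the rate at which it is made, RNA-seq divided by PRO-seq ranks RNAs by how long they last. Both are assumptions, since PRO-seq counts engaged polymerases and thus also depends on how fast they move, which was not measured here. The ratio is called relative half-life below, has no time unit, and is expressed as a log2 difference from the median mRNA. Each TU with more than 10 TPM of PRO-seq signal and more than 1 TPM of RNA was tested against that median by edgeR's quasi-likelihood test on the counts, with p-values adjusted over all 9929 TUs (Benjamini-Hochberg). The paper reports that half-lives from earlier PRO-seq and poly-A+ RNA-seq data varied less than those from the libraries used here. Their agreement with other published half-lives was also better, and the paper's main analyses rest on those earlier data.

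Half-lives of 6 of the 7 genes were above the median mRNA, none lay below it, and DHCR7 could not be told apart from it. Of all TUs tested, 40.4% were called above and 50% below the median mRNA, and of the mRNAs alone 45.4% and 44.9%, so that a call by itself is common. The median log2 half-life of the 7 genes was 0.40, between the median of mRNAs at 0 and their upper quartile at 1.08. With a difference of more than 2-fold required (edgeR's glmTreat), 3 of the 7 genes were called above, as were 21.5% of all TUs.

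Those 3 were FDPS, MVD and SQLE. FDPS was 5.56-fold above the median mRNA, a log2 half-life of 2.47 ± 0.06 (SE, edgeR adjusted p = 4.2e-27), and had a percentile of 93.2 among mRNAs. MVD was 4.33-fold above it (log2 2.12 ± 0.08, edgeR adjusted p = 6.0e-21), and SQLE 3.45-fold (log2 1.79 ± 0.05, edgeR adjusted p = 5.5e-24). Taking 1 library of each assay at a time, all 8 combinations placed each of them far above the median, from 2.40 to 2.55 for FDPS, from 2.02 to 2.22 for MVD and from 1.70 to 1.87 for SQLE.

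HMGCS1, LSS and INSIG1 exceeded the median mRNA by little. The log2 half-life was 0.40 ± 0.06 for HMGCS1 (edgeR adjusted p = 1.3e-06), 0.37 ± 0.07 for LSS (edgeR adjusted p = 2.7e-05) and 0.28 ± 0.06 for INSIG1 (edgeR adjusted p = 6.8e-05), or 1.32-fold, 1.29-fold and 1.21-fold. Over the 8 combinations, HMGCS1 ranged from 0.17 to 0.61, LSS from 0.07 to 0.60 and INSIG1 from 0.12 to 0.42, all above 0. DHCR7 stood at 0.07 ± 0.08 (edgeR adjusted p = 0.36), with 7 of 8 combinations above 0 and a range from -0.09 to 0.17. It passed the test when the median of all TUs served as the reference, at 0.30 (edgeR adjusted p = 0.00063), because that median lay 0.23 below that of mRNAs.

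**Figure D2:**
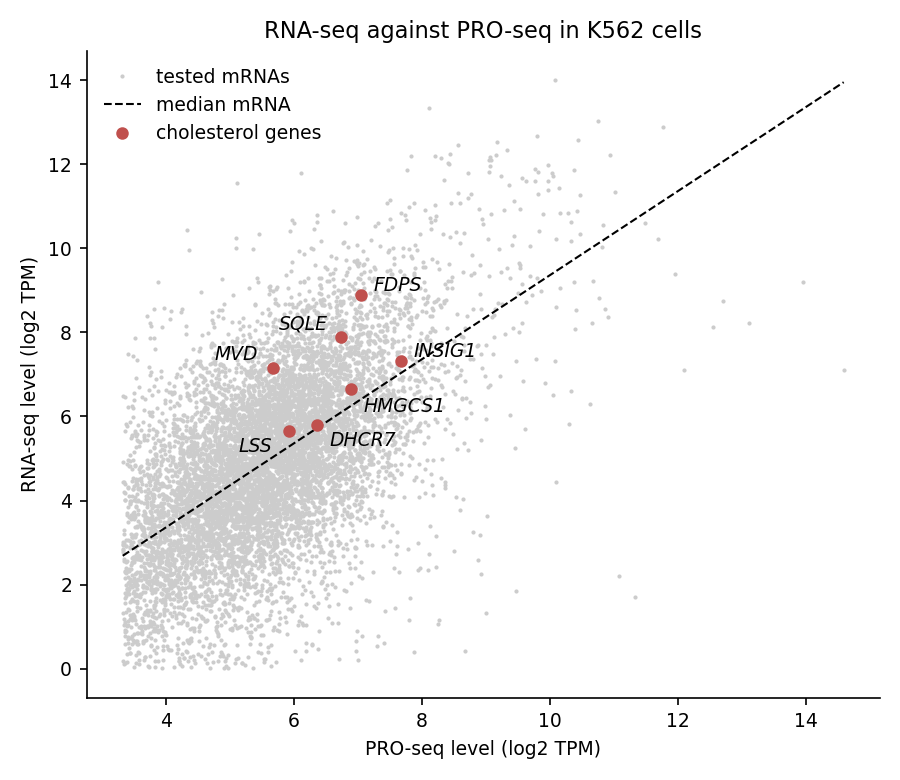
RNA-seq against PRO-seq level, both in log2 TPM from summed counts, for the tested mRNAs (grey), with the 7 genes in red and a dashed line at the ratio of the median mRNA. The distance above the line is the log2 half-life, largest for FDPS at 2.47 and smallest for DHCR7 at 0.07.

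Seen afterwards, the genes fell into an upper group of 3 and a lower group of 4, split between SQLE and HMGCS1 by 1.38 on the log2 scale, with every one of the 8 combinations between 1.21 and 1.56. Neighbours were compared by the replicate SD, the root of the summed variances of log2 TPM over the libraries of both assays, which was between 0.07 and 0.21 for the 7 genes and had a median of 0.13 over mRNAs. FDPS exceeded MVD by 0.35 and MVD exceeded SQLE by 0.33, each more than the combined replicate SD of the pair (0.14 and 0.12) and in all 8 combinations. HMGCS1 and LSS differed by 0.03, with combinations from -0.43 to 0.54, and LSS and INSIG1 by 0.09, with combinations from -0.20 to 0.37, so that these 3 could not be ordered. INSIG1 exceeded DHCR7 by 0.20 in all 8 combinations, against a combined SD of 0.14. In the order of the pathway, the log2 half-lives of the measured enzymes were 0.40 for HMGCS1, 2.12 for MVD, 2.47 for FDPS, 1.79 for SQLE, 0.37 for LSS and 0.07 for DHCR7, so that the 3 higher values lay in the middle. This order was not tested, and other enzymes of the pathway lie between them.

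Across the 7 genes, the SD of log2 half-life was 1.01 and that of the log2 PRO-seq level 0.69, against 1.68 and 1.24 across the tested mRNAs. The SD of the log2 RNA-seq level was 1.14, against 2.05 across mRNAs. The half-life is computed from both levels, so these SDs are not independent, and they describe 7 genes only.

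Both groups differed in the length of the counted transcripts. The exons of FDPS, MVD and SQLE added up to 1.20, 1.80 and 1.88 kb, the shortest of the 7, at percentiles of 12.6, 23.7 and 25.8 among 8606 tested mRNAs with introns. The 4 genes of the lower group had 2.62 to 5.35 kb, against a median of 3.07 kb over those mRNAs. Exon length divides the RNA-seq counts in TPM, so the 2 measures are not independent. The 3′ UTR was likewise shorter in the upper group, at 57 bases for FDPS, 336 for SQLE and 585 for MVD, against 719 for LSS, 964 for DHCR7, 1875 for INSIG1 and 3661 for HMGCS1. The upper group had 5.0 to 6.69 splice junctions per kb of exon, above the median of 3.12, whereas HMGCS1, INSIG1 and DHCR7 had 1.87, 1.91 and 3.05. LSS went against this, with 23 exons, 7.35 junctions per kb and a half-life near the median. GC content spanned 39.0% in HMGCS1 to 65.5% in MVD, with SQLE at 41.1% and DHCR7 at 58.1%, and did not separate the groups. The pentamer ATTTA, the core of AU-rich elements known in unstable mRNAs, was counted after the half-lives were seen. It was absent from the 3′ UTRs of FDPS and MVD, as from 28.8% of those of 8022 mRNAs, which were not matched for length. The 57 bases of FDPS, a length at a percentile of 4.0, leave little room for it. The pentamer occurred 12 times in HMGCS1, 6 in INSIG1, 3 in SQLE, 2 in DHCR7 and 1 in LSS. Per kb of 3′ UTR, SQLE held the most, 8.93, at a percentile of 98.4, beside a half-life in the upper group.

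The choice of transcript bears on these lengths. For HMGCS1, MVD and DHCR7 the counted transcript is the one that the annotation marks as representative (MANE Select). For LSS that transcript is 4886 bases long against 2995 counted, for SQLE 2962 against 1879, for FDPS 1417 against 1196 and for INSIG1 2908 against 2623. The RNA-seq counts were taken over the exons of the counted transcript. Were the same counts divided by the longer length, the log2 half-life would be lower by 0.71 for LSS and 0.66 for SQLE. It would be lower by 0.24 for FDPS and 0.15 for INSIG1, and that of LSS would lie below the median mRNA. As MVD and HMGCS1 would not shift, the lead of FDPS over MVD, 0.35 with a combined replicate SD of 0.14, would narrow by 0.24. The split of 1.38 between SQLE and HMGCS1 would narrow by 0.66, and the lead of MVD over SQLE would widen by as much. Reads on bases outside the counted transcript are not in these counts, and any such reads would make the shifts smaller. With MANE Select lengths the groups would no longer separate by exon length, since SQLE would be longer than DHCR7 and INSIG1. The 3′ UTR lengths and ATTTA counts above likewise belong to the counted transcripts, and those of the MANE Select transcripts were not compared. The methods state that features were taken from the transcript of each gene that Salmon estimated as most abundant. Whether the deposited counts followed that choice is not stated, and which transcripts these cells use was not tested.

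TUs overlapping the 7 genes lay on the opposite strand. MVD, SQLE, DHCR7 and INSIG1 overlapped no other counted TU. FDPS shared 22.8% of its span with RUSC1-AS1 on the opposite strand, which had 7 to 13 RNA-seq and 152 and 150 PRO-seq counts, against 356 and 399 PRO-seq counts for FDPS. HMGCS1 overlapped 1 antisense TU and LSS 2, and none of these reached more than 8 counts in a library. The strand setting of the counting was not given in the sources used here. Among 738 mRNAs lying wholly inside a TU of the opposite strand, 17.9% had no PRO-seq count, against 94.5% of 364 inside a TU of the same strand, so that PRO-seq reads of opposite strands were told apart. The files listed 6 pseudogenes of FDPS, FDPSP1, FDPSP3, FDPSP4, FDPSP5, FDPSP7 and FDPSP8, and held 114 RNA-seq counts in all, 1.48% of those of FDPS. Reads aligned more than once were in a row of their own and counted for neither.

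The rest of the pathway was spread on both sides of the median. The 6 lists of textbook genes held 47 genes besides the 8 above, of which 44 had a counted transcript and 38 were tested. Of these, 21 (55.3%) had half-lives above the median mRNA, 16 (42.1%) below it and 1 was not called, beside the 45.4% and 44.9% of all mRNAs. Their median log2 half-life was 0.25.

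Of the 11 tested enzymes in both synthesis lists, 8 were above and 3 below. In the mevalonate and isoprenoid list, 4 of 5 tested genes were above and 1 below, with ACAT2, the cytosolic thiolase that opens the pathway, highest at 2.55 ± 0.06 (SE), alongside FDPS, and MVK, mevalonate kinase, lowest at -0.51 ± 0.08. In the squalene and sterol list, 4 of 6 were above and 2 below. NSDHL, a sterol dehydrogenase, stood highest at 1.75 ± 0.07, beside SQLE, and TM7SF2, a sterol reductase, lowest at -1.97 ± 0.12, with a PRO-seq level of 160 TPM and an RNA-seq level of 26.2 TPM. Genes of sterol sensing and SREBP processing, to which INSIG1 belongs, split into 3 above and 4 below. MBTPS2, the site-2 protease of SREBP, stood lowest at -1.16 ± 0.13.

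Of 9 tested genes of uptake and trafficking, 4 were above and 5 below, from NPC2, a lysosomal cholesterol carrier, at 2.14 ± 0.14, to LRP8, a lipoprotein receptor, at -2.14 ± 0.05. LRP8 had a PRO-seq level of 115 TPM, near that of HMGCS1, and 16.7 TPM of RNA. Of 3 tested genes of efflux and esterification, 2 were above, with the liver X receptor genes NR1H2 highest at 0.96 ± 0.06 and NR1H3 lowest at -0.11 ± 0.13, not called (edgeR adjusted p = 0.43). The 8 fatty acid targets of SREBP divided evenly into 4 above and 4 below, from FADS1, a desaturase, at 1.64 ± 0.05, to ELOVL6, an elongase, at -1.24 ± 0.05. All genes named in the last 2 paragraphs other than NR1H3 passed the test.

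A further 3 enzymes had RNA but too few PRO-seq reads to be tested, and were singled out after their values were seen. EBP, a sterol isomerase, had 457 to 837 RNA-seq counts and 0 PRO-seq counts, CYP51A1, lanosterol demethylase, had 71 to 118 and 0, and GGPS1, geranylgeranyl pyrophosphate synthase, had 240 to 353 and then 2 and 4. Each overlapped 1 counted TU of the same strand, and the part of this overlap in the low PRO-seq counts was not tested.

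Among the mRNAs nearest to the median point of the 7 genes in both levels were NDC1, a nuclear pore protein, at a distance of 0.02 on the log2 scale, and EXO1, an exonuclease, at 0.04. This point joins the separate medians of the 2 levels and is that of no single member. The log2 half-life was 1.08 for NDC1 and 1.10 for EXO1, above the members' median of 0.40.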

How the data were processed

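The authors trimmed reads with Cutadapt, aligned them to GRCh38 with HISAT2 and deposited raw read counts by HTSeq, over the exons of the listed transcripts in 4 RNA-seq libraries and, in 2 PRO-seq libraries, over the TU with 500 bp left out at each end. For tool versions, annotation release and strand, the settings were not given in the sources used here. Of 42371 transcripts listed, 37339 (88.1%) were matched by identifier to GENCODE 44 lifted to GRCh37, which gave lengths and symbols and assigned them to 37192 genes. Each member measured had 1 listed transcript. GRCh37 lengths may differ slightly from those of GRCh38. HTSeq's rows for reads on no feature, ambiguous reads and reads aligned more than once were left out and made up 66.5% to 68.6% of RNA-seq and 86.5% and 88.6% of PRO-seq records.

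Groups followed the sample titles. RNA-seq was tested against PRO-seq per TU with edgeR 4.0.16 in R 4.3.3 (glmQLFit and glmQLFTest), with length offsets (exons, or TU span minus 1000 bp), TMM and centring on the median mRNA, over 9929 TUs above 10 PRO-seq TPM and 1 RNA-seq TPM. The SE is the log2 change over the root of F, and the threshold was an adjusted p of 0.05. The fit was tested on simulated data. Alternatives were DESeq2 1.42.0, library totals, other thresholds, lengths and references, a replicate block and leaving out each library. The members and lists were chosen with earlier results of these data known. Named besides the members were the highest and lowest tested gene of each list, the 3 mRNAs nearest to the members' median levels, and pseudogenes and overlapping TUs with counts. Some of the genes that this rule names are not reported here.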

Additional observations from a re-analysis of the deposited data

Results flagged for a closer look

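RNA-seq TPM of FDPS was flagged because replicate 3, at 483 TPM, lay apart from the others at 471, 469 and 471 TPM. The gap to the nearest of them was 0.849 of the whole range, above the critical value of Dixon's test for 4 samples. The coefficient of variation over the 4 libraries was 1.35%, the lowest of the 7 genes. Of 7 genes examined in this way 1 was flagged, and chance flags about 1 in 20 groups.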

How the results depend on the processing

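The log2 half-lives of all 7 genes stayed above 0 under each of the 16 alternatives run. For DHCR7 this is no established direction, since it was not called in the main fit. None of the alternatives changed the counted transcript. With the same counts divided by its MANE Select length, LSS would lie below the median mRNA. Again 6 genes were above the median mRNA with DESeq2, library totals, stricter thresholds of 20 and 2 TPM, 500 bp left out for PRO-seq, intron-containing mRNAs as the reference and each library left out. With RNA-seq replicates 1 and 3, and 2 and 4, summed, an alternative chosen after seeing the data, 6 genes were again above. When a 2-fold difference was tested, 3 members were above, and of the other pathway TUs 7 were above and 6 below, since the test asks for more. Of all 9929 TUs, 2138 were then above and 2898 below. With at least 1 summed count and no TPM thresholds, 7 members were above and 9 other pathway TUs below, because the reference then includes mRNAs of low counts and lies lower. Of the 20644 TUs tested in that setting, 6634 were above and 7597 below. The median log2 half-life of the members was 1.03 in that setting, 0.63 with all TUs as the reference and 0.51 without PRO-seq replicate 1, in a range from 0.37 to 0.51 over the libraries left out. In the setting with 500 bp left out, the same PRO-seq counts were divided by the TU span less 500 bp. PRO-seq TPM was then higher for each gene, as 237 for INSIG1, a change of divisor and scaling with no reads recounted. Leaving out each library gave log2 half-lives from 0.29 to 0.51 for HMGCS1, from 0.27 to 0.47 for LSS and from 0.20 to 0.36 for INSIG1, whose highest edgeR adjusted p was 0.016, and from 0.02 to 0.13 for DHCR7. Leaving out a PRO-seq library left a lone one, whose variation was taken to equal that of RNA-seq.

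Replicates 1 and 2 exist in both assays. The differences between replicates 1 and 2 in both assays had a correlation of -0.011 over 9841 TUs, which does not pair them. With a replicate block in the fit, 6 members were above and 0 below, and 21 other pathway TUs were above and 15 below. Of all 9929 TUs, 3918 were above and 4859 below in that fit. The depth limits MVD most, with 128 and 142 PRO-seq counts.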
